A study of Mus musculus with 6 samples.

Results

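The complement components and regulators described here were 9 genes: the C1q chains C1qa, C1qb and C1qc, the C1 proteases C1ra and C1s1, the central components C3 and C4b, factor B (Cfb) and the C1 inhibitor Serping1. They were chosen by gene name from the 55357 genes of the table, and all 9 were found and passed the filter on low values. RNA sequencing was carried out on 6 cultures of mouse cortical astrocytes. Of these, 3 cultures (KE) were transfected with a CMV-driven plasmid for FLAG-tagged BRAF K499E (BRAF KE, the genotype given as K499E), and 3 cultures (NT) were nontransfected (genotype given as naive). All 6 were harvested at 48 hours. The study's astrocyte protocol used cortices of C57BL/6 embryos at embryonic day 18, with shaking of the dishes before replating. No culture with an empty plasmid or wild-type BRAF was analysed here, so an effect of BRAF KE and one of transfection or plasmid DNA cannot be told apart. The sources used here do not say that the cultures were separate preparations, so p values measure the spread between these 6 samples.

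Complement is a cascade of plasma and tissue proteins that tags surfaces for removal and recruits immune cells. In the classical pathway, C1q binds a target and activates the proteases C1r and C1s, which cleave C4 and C2 to form an enzyme that cleaves C3; factor B forms the C3-cleaving enzyme of the alternative pathway, and the C1 inhibitor blocks C1r and C1s. In the brain, C1q is made mainly by microglia, whereas astrocytes are a known source of C3 and C4, and C1q and C3 take part in the removal of synapses.

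Values are normalized counts, that is, estimated gene counts divided by a size factor for each culture. Sequencing depth, as read from the steps between low values, ranged from about 24500000 to 34100000 reads per culture, and KE replicate 2 was the shallowest. Braf, the transfected gene, reached 35025, 34933 and 40978 after transfection against 925, 811 and 946 without it, so that every culture labelled KE lay above every culture labelled nontransfected. Of 15280 genes tested, 51.3% were differentially expressed (limma, Benjamini-Hochberg adjusted p under 0.05), 25.3% higher and 26.0% lower in BRAF KE–transfected astrocytes, and in 59.9% the values of the groups did not overlap. Among the astrocyte markers, Slc1a3, Glul and Gfap were abundant, whereas S100b was between 11.8 and 31.5 in every culture.

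Of the 9 complement genes, 4 were upregulated (C1ra, C4b, Cfb and Serping1), 3 were downregulated (C1qa, C1qb and C1qc), and C1s1 and C3 did not pass the test. Of all genes tested, 51.3% were called, 25.3% as higher and 26.0% as lower, so 7 of 9 is a count to be read against a high background. The values of the groups did not overlap for 7 of the 9, beside 59.9% of all genes tested. The C1q chains were between 8.42-fold and 10.5-fold lower in transfected cultures, and the 4 upregulated genes rose between 1.45-fold and 4.08-fold.

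**Figure D1:**
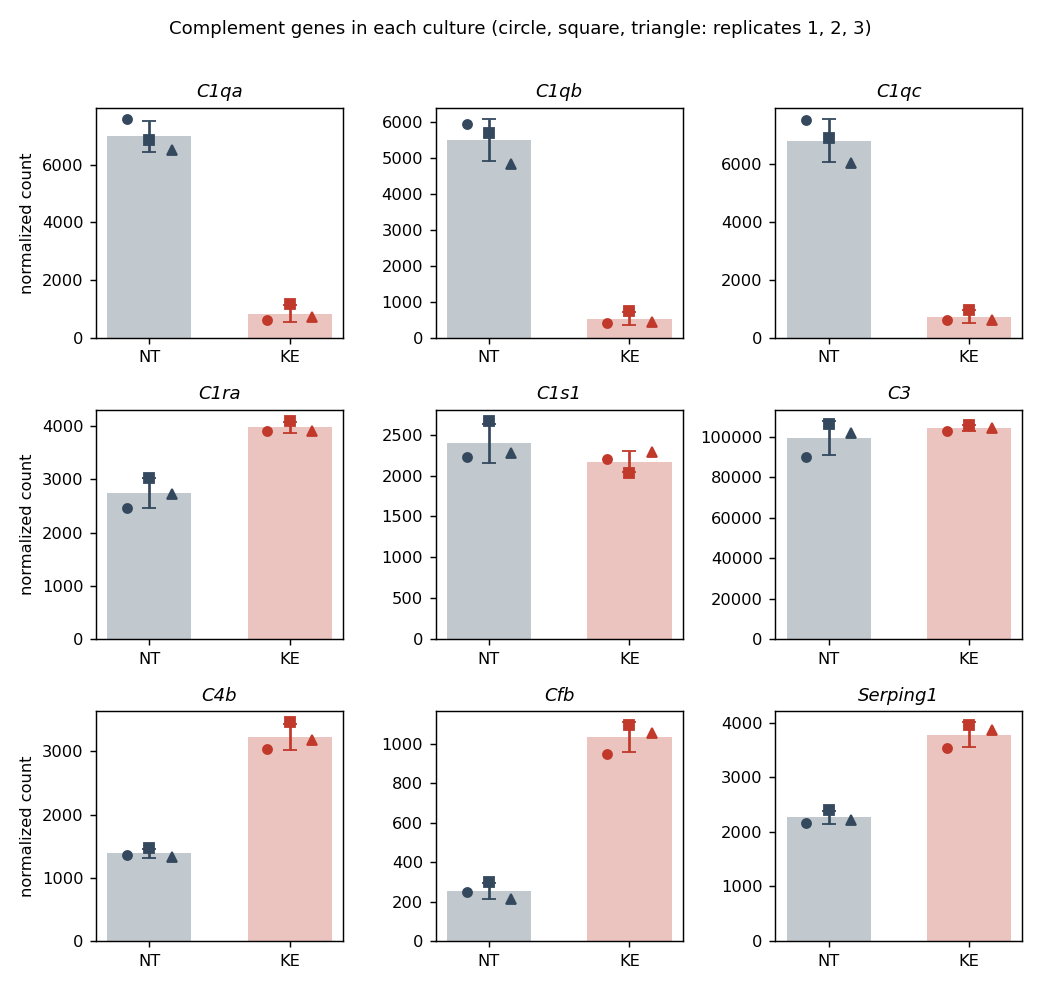
Normalized counts of the 9 complement genes in each culture (y axis, from 0) for nontransfected (NT) and BRAF KE–transfected (KE) astrocytes; bars are means, error bars are SD (n = 3) and symbols are the replicates. The C1q chains sit far lower in all 3 KE cultures, Cfb and C4b sit higher in all 3, and the values for C1s1 and C3 overlap.

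The genes for the C1q chains lie side by side on the minus strand of chromosome 4 in GRCm39, each with 3 exons in its canonical Gencode transcript: C1qb at chr4:136606009-136613511, C1qc at chr4:136616466-136620376 and C1qa at chr4:136623228-136626161. One molecule of C1q is assembled from all 3 chains. Because they moved together, upstream sequence from the RefSeq promoter table (GRCm38.p6) is shown for C1qb and C1qc, with that of C3, the most abundant of the 9 genes, for contrast. The table held 5 of the 9 genes (C1qb, C1qc, C1ra, C1s1 and C3), and C1qa, C4b, Cfb and Serping1 had no entry. The stretches are chr4:136886201-136886450, chr4:136893066-136893164 and chr17:57228156-57228386, all on the minus strand and written 5′ to 3′. Capitals mark a match to the ETS letters GGAAGT in C1qb, to the PU.1 core GAGGAAGT in C1qc (both read on the opposite strand) and to the C/EBP letters TTGCNNAA in C3.
C1qb: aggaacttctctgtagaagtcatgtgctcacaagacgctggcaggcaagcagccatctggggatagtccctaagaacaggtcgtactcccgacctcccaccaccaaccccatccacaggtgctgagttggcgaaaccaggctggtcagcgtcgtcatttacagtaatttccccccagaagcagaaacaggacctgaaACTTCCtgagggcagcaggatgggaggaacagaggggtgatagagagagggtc
C1qc: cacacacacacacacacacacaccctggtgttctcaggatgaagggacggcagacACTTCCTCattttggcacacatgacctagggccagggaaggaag
C3: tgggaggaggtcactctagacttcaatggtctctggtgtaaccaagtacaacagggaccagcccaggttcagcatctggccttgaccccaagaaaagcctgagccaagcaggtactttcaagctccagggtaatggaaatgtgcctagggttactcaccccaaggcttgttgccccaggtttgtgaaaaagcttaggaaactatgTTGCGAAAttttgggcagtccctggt

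Matches were sought on both strands of the 250 bases before each RefSeq start. Some of these windows run past the start of the canonical Gencode transcript. The stretches shown stop there, which left out 151 bases for C1qc and 19 for C3. PU.1 is an ETS factor of myeloid cells, and its core contains the ETS letters. The C1qb match began 53 bases before the RefSeq start, the C1qc match 195 bases before it and the C3 match 45 bases before it. The ETS letters were in 19.7% of 32851 such windows, the PU.1 core in 2.44% and the C/EBP letters in 9.56%. C1qc also held a match to the NF-kappaB consensus (7.25% of windows), past the start of its canonical transcript and so outside the stretch shown. The C/EBP letters were in 1 of 2 windows of C1s1. Neither the core of the interferon-stimulated response element (GAAA, any 2 bases, then GAAA; 2.98% of windows) nor the interferon-gamma-activated site letters TTCNNNGAA (7.02%) occurred in the windows of these 5 genes. This says little about the upregulated genes. C4b, Cfb and Serping1 had no window, and 216 of the 250 bases for C1ra lay past the start of its canonical transcript. These matches describe letters, not bound sites.

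C1qa (ENSMUSG00000036887) was 624, 1165 and 699 in BRAF KE–transfected cultures and 7583, 6843 and 6524 in nontransfected cultures. The groups were far apart, and KE replicate 2 was the highest of the transfected cultures. The means were 829 ± 293 and 6984 ± 543 (SD, n = 3), a log2 fold change (log2FC) of -3.12 (SE 0.18, 95% interval -3.52 to -2.73, limma adjusted p = 1.7e-07).

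C1qb (ENSMUSG00000036905) was 416, 734 and 429 in the KE cultures against 5960, 5713 and 4846 in the nontransfected cultures. It had the lowest level of the chains in every culture. Its log2FC was -3.43 (SE 0.18, 95% interval -3.83 to -3.03, limma adjusted p = 8.5e-08), from means of 526 ± 180 and 5506 ± 585 (SD, n = 3).

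C1qc (ENSMUSG00000036896) was 599.5, 967 and 605 after transfection and 7501, 6892 and 6014 without it. KE replicate 2 again stood above the other KE cultures, and it remained well under every nontransfected value. The log2FC was -3.26 (SE 0.16, 95% interval -3.61 to -2.91, limma adjusted p = 5.2e-08), with means of 724 ± 211 and 6802 ± 747 (SD, n = 3). Without KE replicate 2, the log2FCs were -3.40 for C1qa, -3.70 for C1qb and -3.49 for C1qc.

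The balance between the chains was compared as log2 ratios within each culture. The C1qb to C1qa ratio was -0.58, -0.66 and -0.70 in KE cultures against -0.35, -0.26 and -0.43 in the nontransfected cultures. These did not overlap, with a difference of -0.31 on the log2 scale (exact two-sided permutation test, p = 0.1, the smallest that 3 against 3 cultures can give). For the C1qc to C1qa ratio the values overlapped, and the difference was -0.14 (exact permutation test, p = 0.2). In a family of 5 such ratios described here, the Benjamini-Hochberg adjusted permutation p was 0.125 for the C1qb and 0.2 for the C1qc ratio.

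The decrease in C1q went together with a decrease in markers of microglia and macrophages. Of 20 such markers, 19 were tested and 18 were downregulated, with a median log2FC of -3.31, where 26.0% of all genes tested were called lower. Cd14, the coreceptor for bacterial lipopolysaccharide, did not pass the test (log2FC 0.04), and Siglech was listed at 0 in every culture. The markers' summed level was 7037, 8522 and 6955 in the KE cultures and between 38564 and 48801 in the nontransfected cultures, and that of the C1q chains was 1639, 2867 and 1734 against 17384 to 21044. KE replicate 2 was the highest of the transfected cultures in both sums. Among the most abundant markers were the protease gene Ctss (log2FC -2.91) and Laptm5 (-3.59). The part of these cells in the decrease of C1q was not tested. In bulk RNA, fewer cells of a type and less RNA per cell cannot be told apart.

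Relative to the mean log2 level of the 19 markers, the C1q chains were 1.64, 2.05 and 1.79 higher in the KE cultures and 2.27, 2.11 and 2.26 higher in the nontransfected cultures. The difference was -0.39 on the log2 scale (exact two-sided permutation test, p = 0.1; Benjamini-Hochberg adjusted p = 0.125), without overlap between the groups. It was -0.23 without Cd14 (exact permutation p = 0.2), and 0.12 when the median of the markers took the place of their mean (exact permutation p = 0.6). The direction of this small difference thus depended on how the markers were summarised, and both alternatives were chosen after the values were seen.

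The 5 genes of mean level at least 100 whose pattern over the 6 cultures was nearest to that of the C1q chains were Cd300c2 (log2FC -3.28), Selplg (-3.24), Il10ra (-3.21), Parvg (-3.06) and Siglec1 (-3.48). Nearness was the Euclidean distance of centred log2 values among 12072 candidates, from 0.140 for Cd300c2 to 0.333 for Siglec1.

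**Figure D2:**
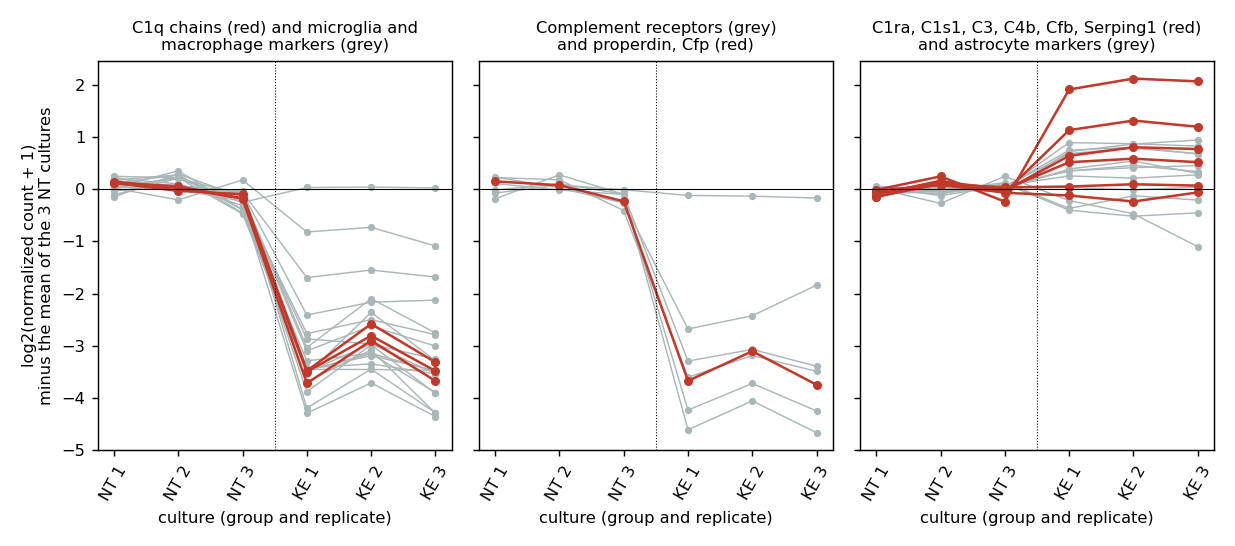
Change of each gene in each culture relative to its mean in the 3 nontransfected cultures (y axis, log2(normalized count + 1); x axis, culture). Lines join the values of 1 gene and imply no order among replicates; the C1q chains lie within the bundle of microglia and macrophage markers, properdin lies among the receptors, and Cfb and C4b lie above the astrocyte markers.

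The C1 proteases did not move alike. C1ra (ENSMUSG00000055172, chr6:124489364-124500402, plus strand, 11 exons), which encodes the protease that activates C1s, was 3908, 4096 and 3910 with BRAF KE and 2457, 3021 and 2729 without. All transfected values lay above all others, with means of 3971 ± 108 and 2736 ± 282 (SD, n = 3). The log2FC was 0.54 (SE 0.07, 95% interval 0.38 to 0.71, limma adjusted p = 1.2e-04).

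C1s1 (ENSMUSG00000038521, canonical transcript at chr6:124507297-124519318, minus strand, 12 exons) encodes the protease that cleaves C4 and C2. It was 2198, 2028 and 2288 in KE cultures against 2232, 2670 and 2276 in the nontransfected cultures, so the groups overlapped. The log2FC of -0.14 did not pass the test (SE 0.08, 95% interval -0.31 to 0.04, limma adjusted p = 0.172). The log2 ratio of C1ra to C1s1 was 0.83, 1.01 and 0.77 in the KE cultures against 0.14, 0.18 and 0.26, a difference of 0.68 (exact two-sided permutation test, p = 0.1; Benjamini-Hochberg adjusted p = 0.125), for a pair chosen after the values were seen. The related genes C1rb and C1s2 had values of at most 19.0 in any culture, and how reads were divided between these copies is uncertain.

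C3 (ENSMUSG00000024164, chr17:57510967-57535155, minus strand, 41 exons), on which all complement pathways converge, was the most abundant gene of the 9. It was 102797, 105939 and 104078 in KE cultures against 89875, 106421 and 101627 in the nontransfected cultures. The nontransfected values spanned those of the transfected cultures, with means of 104271 ± 1580 and 99308 ± 8513 (SD, n = 3). The log2FC was 0.07 (SE 0.08, 95% interval -0.10 to 0.24, limma adjusted p = 0.450), and the interval bounds the change without showing that the levels were equal. The genes nearest to C3 in pattern were Sgsh, Nop53, Ercc3, Fbxw8 and Dnaja2, with distances from 0.0389 to 0.0747 and log2FCs from 0.06 to 0.08.

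C4b (ENSMUSG00000073418, chr17:34947354-34962912, minus strand, 41 exons) encodes C4, the substrate of C1s. It was 3045, 3458 and 3185 in KE cultures against 1363, 1469 and 1330 in the nontransfected cultures, with no overlap. C4b was 2.33-fold higher after transfection (3229 ± 210 against 1388 ± 72.5, SD, n = 3), a log2FC of 1.22 (SE 0.07, 95% interval 1.07 to 1.37, limma adjusted p = 1.4e-07). The log2 ratio of C4b to C3 differed by 1.14 between the groups (-5.01 against -6.16, exact two-sided permutation test, p = 0.1; Benjamini-Hochberg adjusted p = 0.125), also a pair chosen after the values were seen. The near-identical copy C4a was between 3.90 and 14.8 in the cultures, and the division of reads between C4a and C4b is uncertain.

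Cfb (ENSMUSG00000090231, chr17:35074852-35081559, minus strand, 18 exons) had the largest increase of the 9 genes. It was 948, 1096 and 1056 in KE cultures against 249, 298 and 213 in the nontransfected cultures. Each transfected value was above each nontransfected value by a wide margin. The 4.08-fold rise (1034 ± 76.5 against 253 ± 42.8, SD, n = 3) was a log2FC of 2.04 (SE 0.12, 95% interval 1.77 to 2.30, limma adjusted p = 2.1e-07). Among the genes nearest to Cfb in pattern were Parp10, Ly6e, Trib3 and Trim34a, with distances from 0.107 to 0.185 and log2FCs from 2.00 to 2.11. C2, the classical-pathway counterpart of factor B encoded next to it at chr17:35081578-35101090, was 124, 125 and 128 against 100.1, 98.8 and 84.5, a log2FC of 0.41 (SE 0.15, limma adjusted p = 0.034). The call for C2 was lost with no filter (adjusted p = 0.072), with the replicate number as a block (0.051) and without any 1 culture other than NT replicate 1 (0.051 to 0.105).

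Serping1 (ENSMUSG00000023224, canonical transcript at chr2:84595705-84605788, minus strand, 8 exons) encodes the inhibitor of C1r and C1s. It was 3534, 3958 and 3866 in KE cultures against 2167, 2406 and 2223 in the nontransfected cultures. The groups did not overlap, and the rise was 1.67-fold (3786 ± 223 against 2266 ± 125, SD, n = 3). Its log2FC was 0.74 (SE 0.07, 95% interval 0.60 to 0.89, limma adjusted p = 4.4e-06).

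Of 12 astrocyte markers, 8 were upregulated and 2 downregulated (1 without KE replicate 1, KE replicate 3, NT replicate 2 or NT replicate 3), with a median log2FC of 0.40, beside a median of 0.64 for the 6 complement genes other than C1q. Over all genes tested, 25.3% were called higher and 26.0% lower. The summed level of the 12 markers was between 202899 and 209238 in the KE cultures and between 147709 and 156817 in the nontransfected cultures. Slc1a3 had a log2FC of 0.25, Glul of 0.38 and Gfap of 0.87. Gja1 (-0.46) and Fgfr3 (-0.23) fell, and Aqp4 (0.02) and S100b (-0.60) did not pass the test. The part of astrocyte content in the rise of C1ra, C4b, Cfb and Serping1 was not tested. C3, at 0.07, was below the median of the markers.

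Markers of other cell types are given as counts, to be read beside the 51.3% of all genes that were called; the neuronal, fibroblast and endothelial lists are short and are not read as changes in those cell types. Of 7 oligodendrocyte-lineage markers tested, 6 were downregulated (Olig2 -0.55, Pdgfra -0.87 and Cspg4 -0.35 in log2FC). That count was 4 to 7 when any 1 culture was left out, and 4 without the variance trend. Of 5 neuronal markers tested, Tubb3 rose (0.43) and Map2 (-0.51) and Stmn2 (-0.58) fell. Among 7 fibroblast and mural markers 2 rose (0 or 1 when any 1 of the 6 cultures was left out) and 3 fell, with Acta2 at -1.34, Col3a1 at -0.59 and Lum at 0.39. Among 3 endothelial markers tested 2 fell (1 without NT replicate 1 or NT replicate 2), with Flt1 at -0.62 and Pecam1 at -0.86, whereas Kdr did not pass the test (-0.49), and Cldn5 was listed at 0 in the KE cultures.

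Levels were compared between genes per kb of canonical transcript. In nontransfected cultures C3 led at 19253 ± 1651 normalized counts per kb, followed by C1qa at 6425 ± 499.9, C1qc at 3673 ± 404, C1qb at 2175 ± 231 and Serping1 at 1235 ± 68.1 (SD, n = 3). C1ra (918 ± 94.6) and C1s1 (821 ± 82.8) came next and overlapped, ahead of C4b (255 ± 13.3) and Cfb (75.7 ± 12.8). All other neighbours in this order had values that did not overlap.

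In BRAF KE–transfected cultures C3 again led, at 20216 ± 306 normalized counts per kb. Serping1 at 2064 ± 122 and C1ra at 1332 ± 36.3 were next, so that both stood above C1qa at 763 ± 269.5 (SD, n = 3). C1qa overlapped with C1s1 (745 ± 45.4), which was followed by C4b (594 ± 38.7). C1qc (391 ± 114) overlapped with Cfb (309 ± 22.9), and Cfb with C1qb (208 ± 71.2).

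**Figure D3:**
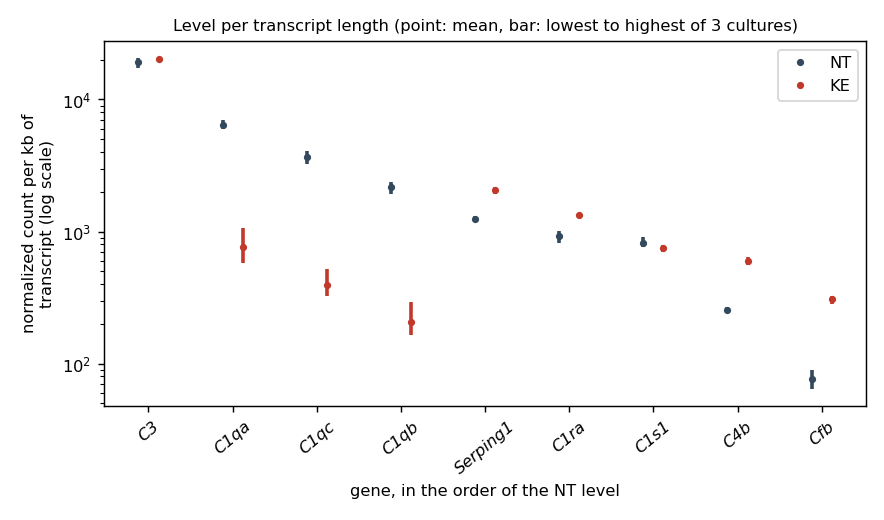
Mean normalized count per kb of canonical transcript (y axis, log scale) for the 9 complement genes in NT and KE cultures; bars run from the lowest to the highest of 3 cultures and are hidden where shorter than the point. C3 stays at the top in both groups, the C1q chains hold the next places in NT only, and C4b and Cfb are closer to the other genes in KE.

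Of the 45 other complement genes listed, 22 passed the filter, 3 were upregulated, 10 were downregulated and 9 did not pass the test, with a median log2FC of -0.33 against 0.00 for all genes tested. Groups did not overlap for 16 of the 22. Over all genes tested, 51.3% were called, 25.3% higher and 26.0% lower, and 59.9% did not overlap. The share called in either direction was thus near the background, whereas the split by direction, 3 up and 10 down, was less even than over all genes, and that difference was not tested. Among initiators, Masp1, a lectin-pathway protease, was 383, 363 and 398 against 262, 276 and 325 (log2FC 0.41, SE 0.11, limma adjusted p = 0.0092). Colec12, a scavenger receptor with a lectin domain, was 168, 228 and 176 against 1675, 1480 and 1420 (SE of the log2FC 0.12, limma adjusted p = 1.8e-08). The Colec12 values thus fell without overlap.

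The properdin gene (Cfp), whose product stabilises the C3-cleaving enzyme that factor B forms, was 207, 307 and 196 in the KE cultures against 2942, 2794 and 2255 (log2FC -3.51, SE 0.16, limma adjusted p = 3e-08). Its groups did not overlap, and its fall was close to the median of the microglia and macrophage markers (-3.31), whose part in it was not tested. Of 6 membrane regulators tested, 1 rose and 1 fell, where 51.3% of all genes tested were called. Csmd1, an inhibitor of the classical pathway, rose by a log2FC of 0.36 (SE 0.08, limma adjusted p = 0.0045). Cd55 fell, with a log2FC of -0.87 (SE 0.25, limma adjusted p = 0.014) and no overlap between the groups. Without NT replicate 2 the log2FC of Cd55 was -0.60 and its call was lost (limma adjusted p = 0.056).

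Of 10 receptor genes 6 were tested and 5 were downregulated, where 26.0% of all genes tested were called lower. C1qbp did not pass the test (log2FC -0.14, limma adjusted p = 0.069), and C5ar2, Itgax, Cr2 and Vsig4 were too low to be tested. The 6 tested genes had a median log2FC of -3.34, and all 10 had a summed level of 4174 to 4592 in the KE cultures against 17318 to 20458. Itgam and Itgb2, the chains of complement receptor CR3, had log2FCs of -4.07 (SE 0.12) and -3.25 (SE 0.10). The anaphylatoxin receptors C3ar1 and C5ar1 had log2FCs of -3.43 (SE 0.16) and -4.44 (SE 0.17). These receptors are also expressed by microglia and macrophages, whose markers fell by a median of -3.31, and the part of those cells in the result was not tested.

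Several complement genes were at or near 0. Mbl1, Fcnb, Cfd, C8a, C9 and Vsig4 were listed at 0 in all 6 cultures, Mbl2, Colec10, C4bp and Cd55b in all nontransfected cultures and C6 in all KE cultures. The last 5 genes had at most 2.71 normalized counts in any culture, and no fold change is given for them.

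**Figure D4:**
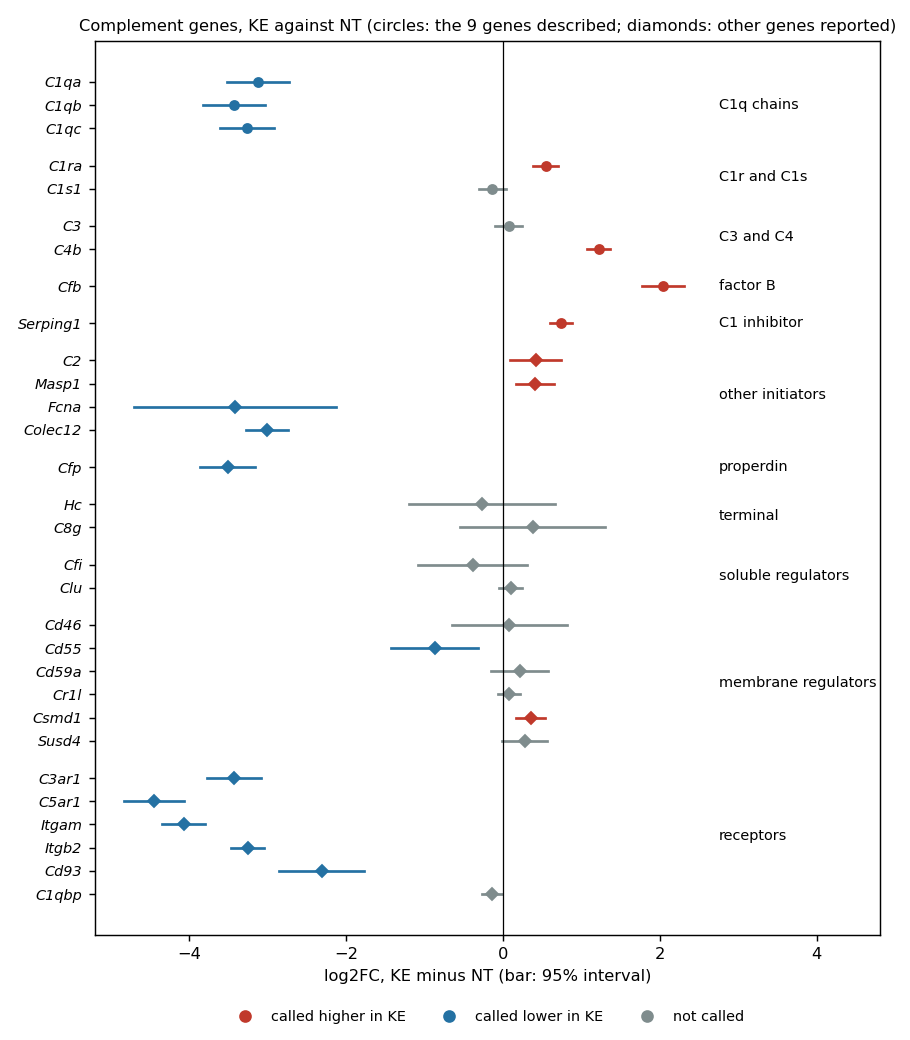
log2FC of BRAF KE–transfected over nontransfected cultures (x axis; bars are 95% intervals from limma) for the 9 complement genes (circles) and other complement genes tested (diamonds), by role. C1q chains, Colec12, properdin and the receptors other than C1qbp lie far to the left of 0, and Cfb and C4b lie farthest above it.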

How the data were processed

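The authors deposited 1 table of normalized counts (a signal: gene counts estimated by Salmon and divided by DESeq2 size factors) for 6 cultures sequenced from a stranded mRNA library. Per the study's methods, the authors ran the nf-core RNA-seq pipeline with Trim Galore, STAR, Salmon and DESeq2, and used a Gencode annotation of GRCm39; the processing notes list GRCh38, although all gene identifiers are mouse. An adjustment for batch is mentioned without naming the batches. Because values held fractions of reads (77.4% to 79.9% of low values were whole multiples of 1 read to within 0.1), no count test was run. limma 3.58.1 in R 4.3.3 was fitted with a variance trend to log2(normalized count + 1) of genes with a mean of at least 10, with the group as its term. Fold changes on this scale understate those of low genes. Tests were two-sided, the Benjamini-Hochberg adjustment covered all 15280 genes, and a gene was called under 0.05. Ratios within a culture were compared by exact permutation tests. Transcript lengths and coordinates were taken from Gencode vM39. On simulated data with 200 changed genes, the fit recovered 78% at an absolute log2FC of 1 and 97% at 3, with 10 false calls among 15280 genes.

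The members and lists were chosen with earlier results of these data known. Named were all 9 members and Braf. Also named were other complement genes called with a mean of at least 100 or listed at 0 in a whole group. The 3 most abundant genes of each marker list and the 5 genes nearest in pattern to C1q, C3 and Cfb were named too. S100b, Cd14, Gja1, Fgfr3, Aqp4, C1qbp, C5ar2, Itgax, Cr2, Cd55 and Fcna were named after their values were seen. Some genes that this rule names are not reported here. Alternatives were other pseudocounts, filters and scalings, limma without the variance trend, the replicate number as a block, and leaving out each culture.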

Additional observations from a re-analysis of the deposited data

How the results depend on the processing

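Of 407 values recomputed over 16 settings, 389 kept their direction and call or stayed within 1.5 times the count, and no complement gene of the 9 changed its call or direction. The permutation results among the 407 could change only in direction, because their p cannot fall below 0.1. Leaving out each culture in turn gave log2FCs of -3.40 to -2.95 for C1qa, -3.70 to -3.29 for C1qb, -3.49 to -3.14 for C1qc, 0.47 to 0.62 for C1ra, -0.18 to -0.06 for C1s1, 0.00 to 0.13 for C3, 1.17 to 1.26 for C4b, 1.92 to 2.16 for Cfb and 0.71 to 0.79 for Serping1. The level of C1q over the microglia and macrophage markers reversed to 0.12 with the median of the markers. The 3 upregulated other complement genes became 5 with quantile normalization and 2 without any 1 culture other than NT replicate 1, C2 being the one lost; the downregulated ones ranged from 8 to 11 over those fits. Without the variance trend, 1 astrocyte marker fell, 2 neuronal markers rose and 0 fibroblast markers rose. With a mean of at least 50, 1 endothelial marker fell, fewer being tested. Leaving out a culture gave 1 to 2 astrocyte markers down, 0 to 1 fibroblast markers up and 1 to 2 endothelial markers down. Among the downregulated other complement genes, Fcna fell below the filter without any 1 nontransfected culture, and Cd55 lost its call without NT replicate 2. The cause of the other shifts was not tested. In deviations from the group means, same-numbered cultures correlated weakly (r = 0.059 to 0.066, against -0.050 to -0.010 for different numbers). Deviations within a group cancel, so these ranges are not independent, and they do not settle whether the numbers pair the cultures. The main fit did not pair them. In a fit with a replicate block, 3967 genes were upregulated and 4079 downregulated, against 3870 and 3974 without it. Of the other complement genes, 2 were upregulated and 10 downregulated in the block fit. No scaling moved the median log2FC of all genes by more than 0.03. The number of cultures, 3 a group, limits the permutation tests to p = 0.1.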
